A study of Mus musculus with 2 samples.

Results

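Mast cells of psoriasiform mouse dermis were identified in the dermal library of imiquimod (IMQ)-treated skin as the cells in which transcripts of 3 granule proteases, *Cma1*, *Mcpt4* and *Tpsb2*, stood far above background. A cell was taken as a mast cell when it had at least 200 detected genes and at most 10% mitochondrial transcripts, at least 3 unique molecular identifiers (UMIs, the tags by which captured transcripts are told apart) of the 3 proteases together, at least 20 of them per 10000 UMIs of the cell, and more of them than of *Mcpt8*, the basophil protease. By this rule 133 cells of the 4747 dermal cells that passed the limits on genes and mitochondria were mast cells, 2.80% (exact Clopper-Pearson 95% interval 2.35 to 3.31%), out of 8920 such cells in the dermal and epidermal libraries together. Detection of *Ptprc* (CD45) was not required.

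Wild-type C57BL/6 mice, 10 weeks old by the labels, received imiquimod, a Toll-like receptor agonist given as a cream, on the ear for 5 days in a row, while the study's methods give a younger age. Dermis and epidermis were then digested apart, and 1 droplet-based 3′ single-cell RNA library was made from each. The study's methods describe sorted CD45+ live cells for the dermis, whereas the labels speak of the removal of dead cells for both layers. No untreated library belongs to this comparison and the number of animals per library is not given in the sources used here, so the values describe mast cells of inflamed skin, without a measure of what IMQ changed and without a spread between animals. All intervals are exact 95% intervals and cover counting error only, and no test between cell groups was made, since cells of 1 library are not replicates.

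Mast cells are long-lived tissue cells of the myeloid lineage that depend on KIT, the receptor for stem cell factor. They store proteases, histamine and heparin in cytoplasmic granules and release them when IgE bound to the high-affinity receptor FcεRI is cross-linked, or when basic peptides act on receptors of the Mas-related family. In connective tissues such as the dermis of the mouse, their granules are known for the chymases encoded by *Cma1* and *Mcpt4*, the tryptase encoded by *Tpsb2* and carboxypeptidase A3, whereas the chymases encoded by *Mcpt1* and *Mcpt2* are typical of mast cells of mucosal surfaces. Basophils share the receptor and histamine with mast cells but circulate in blood and carry other proteases.

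The dermal library held 5376 barcodes and 41258087 UMIs, and the cells that passed had a median of 7010 UMIs and 1819 genes. Mast cells were far shallower than their neighbours. Their UMI counts ran from 500, which is also the lowest count of any barcode in this library, to 13706, with quartiles of 668, 879 and 1413 and a median of 473 genes. In all, 82 of the 133 (61.7%) had fewer than 1000 UMIs, against 131 of the other 4614 cells (2.84%). Together they held 187930 UMIs, 0.465% of the UMIs of the passing cells. Basophils, gated by *Mcpt8* with the same minimums, numbered 176 with a median of 4476 UMIs, and the macrophages (810 cells, gated by *C1qa*, *C1qb* and *C1qc*), T cells (341 cells, by *Cd3d*, *Cd3e* and *Cd3g*) and fibroblasts (242 cells, by *Col1a1*, *Col1a2* and *Col3a1*) of the same library had medians between 8765 and 10912 UMIs. The mitochondrial share of mast cells had a median of 2.85%, against 2.14% in all other dermal cells, and 23 mast cells lay above the 5% limit that the study used. A further 7 cells met the protease gate but had more than 10% mitochondrial UMIs. Because the barcodes stop at 500 UMIs, mast cells below that depth were not analysed here, and the share of 2.80% counts only those above it.

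**Figure D1:**
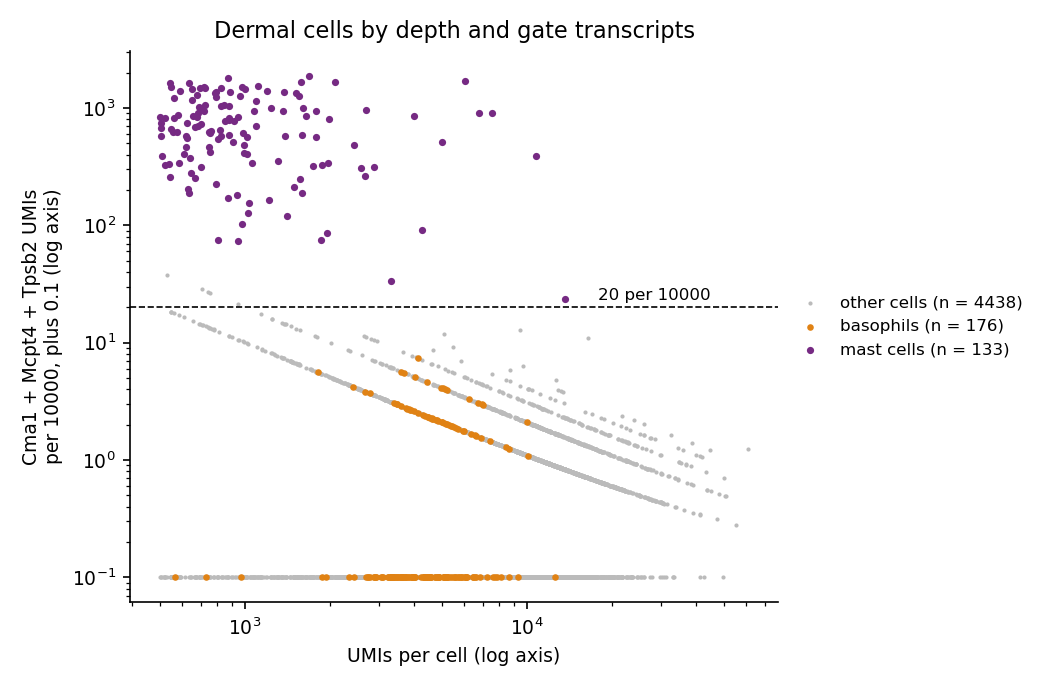
Summed *Cma1*, *Mcpt4* and *Tpsb2* UMIs per 10000 UMIs of a cell (log axis, 0.1 added) against the UMIs of the cell (log axis), 1 point per dermal cell, with the dashed line at 20 per 10000. The 133 mast cells lie above the line and mostly to the left, the 176 basophils lie below it, and the grey points above the line are cells with fewer than 3 UMIs of the 3 genes.

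The cells were chosen by their *Cma1*, *Mcpt4*, *Tpsb2* and *Mcpt8* counts, and these values are given as a description. The members nearest to the limit inside it had 23.3 gate UMIs per 10000 (32 of 13706 UMIs), 33.4 and 73.6 per 10000, and those nearest outside, among cells with at least 3 gate UMIs, had 12.7 (12 of 9478), 11.8 and 11.4. Few cells lay near the limit. The member at 23.3 per 10000 was also the deepest, and it held 300 UMIs of *Lyz2* (a lysozyme of macrophages and neutrophils) beside 8 of *Cpa3*, whereas the members at 33.4 and 73.6 held 4 and 3 of *Lyz2*. Of *S100a8*, a neutrophil gene, the members at 33.4 and 73.6 held 188 and 0 UMIs. Markers that the rule did not use bear on the name. *Cpa3*, encoding carboxypeptidase A3, was found in 130 of the 133 cells. All 133 had at least 2 UMIs summed over the 11 further mast cell genes looked for, and 130 had UMIs of at least 2 of these genes. In 122 (91.7%) a UMI of *Kit*, *Fcer1a*, *Ms4a2*, *Mrgprb1* or *Mrgprb2* was found. Of the 4614 other dermal cells, 10.4% had a UMI of *Cpa3*, 35.6% one of *Hdc* and 1.91% one of *Kit*. Of the 176 basophils among them, 76.7% had a UMI of *Fcer1a*, 72.7% of *Ms4a2*, 55.1% of *Cpa3* and 100% of *Hdc*. These genes are thus shared with basophils, whereas *Kit* and *Mrgprb1* were found in 0 basophils. *Kit* by itself was seen in 38 mast cells (28.6%, 21.1 to 37.0%), 16 of the 82 members under 1000 UMIs, 17 of 46 between 1000 and 5000, and 5 of 5 above. For melanocytes, which also carry *Kit*, the 6 marker genes looked for (*Dct*, *Tyr*, *Tyrp1*, *Pmel*, *Mlana* and *Sox10*) had 0 UMIs in the 133 cells.

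In the epidermal library the same rule found 0 mast cells among 4173 cells, which allows a share of up to 0.0884% (exact 95% interval). All 4173 cells together held 51 UMIs of the 3 proteases, at most 2 in a cell, against 15710 UMIs in 2195 cells of the dermis. Mast cells were therefore seen in the dermal layer only, at this depth. The libraries shared 45 barcodes, 1 of them that of a mast cell.

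Granule proteases made up 8.47% of all mast cell UMIs (8.35 to 8.60%), against 1.36% of basophil UMIs and 0.0485% of those of all other dermal cells. In single mast cells this share ran from 0.306 to 23.2%, with a median of 8.87%. *Cma1*, the α-chymase, was the most abundant transcript of the mast cell sum with 8446 UMIs, followed by *Mcpt4* with 3210 and *Cpa3* with 2769, and in 82 of the 133 cells no transcript outnumbered *Cma1*. Levels below are CPM, the UMIs of a gene per 1000000 UMIs summed over the cells of a group. They are not divided by gene length, because a 3′ library counts each transcript once. At 44942 CPM in mast cells, *Cma1* stood at 65.4 in basophils, 43.3 in macrophages, 39.9 in T cells and 39.0 in fibroblasts. *Mcpt4*, the main chymase of mouse skin mast cells that is taken as the counterpart of human chymase in function, stood at 17081 CPM against 16.9 to 27.0 in those groups. The low level outside mast cells was alike across unrelated cell types, and the mast cells, 2.80% of the cells, held 82.3% of the *Cma1*, 76.4% of the *Mcpt4* and 86.5% of the *Tpsb2* UMIs of the dermis. Among the proteases that did not choose the cells, *Tpsab1* (mast cell tryptase α/β 1) had 108 UMIs in 55 mast cells and 44 in all other cells, and *Tpsg1*, a membrane-anchored tryptase, 57 against 8. *Ctsg* (cathepsin G, shared with neutrophil precursors) had 41 UMIs in 17 cells, 22 of them in 1 cell. *Prss34*, a basophil protease, had 1 UMI. These genes belong to families of near-identical neighbours, among which reads can be shared or lost, so the split between *Tpsb2* and *Tpsab1* and among the chymases is uncertain.

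The protease genes sit in clusters. In the GENCODE M21 annotation of GRCm38, *Cma1* (ENSMUSG00000022225) lies at chr14:55941451-55944675 on the minus strand, with *Mcpt1* (chr14:56017971-56020384), *Mcpt2* (chr14:56042041-56044642), *Mcpt4* (chr14:56059629-56062313) and the basophil gene *Mcpt8* (chr14:56082166-56085273) beyond it. *Tpsab1* (chr17:25343245-25345562), *Tpsb2* (chr17:25366305-25369098) and *Tpsg1* (chr17:25369273-25374442) follow each other on chromosome 17, downstream of *Prss34* (chr17:25298394-25300165), and *Cpa3* lies apart at chr3:20215620-20242181. To show the sequence before the start of the chymases, of *Cpa3*, the most abundant protease outside the cluster, of *Mcpt8*, the basophil member of the cluster, and of *Ms4a2*, an IgE receptor gene of both cell types, 250 bases of each were read from the RefSeq promoter table of GRCm38.p6. Capitals mark AGATAA or TGATAA, letters of the GATA motif, on either strand.

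Cma1: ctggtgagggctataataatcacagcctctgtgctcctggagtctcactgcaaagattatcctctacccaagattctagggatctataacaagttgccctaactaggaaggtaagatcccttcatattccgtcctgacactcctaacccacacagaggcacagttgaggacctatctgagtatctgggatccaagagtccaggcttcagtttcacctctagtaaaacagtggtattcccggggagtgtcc
Mcpt4: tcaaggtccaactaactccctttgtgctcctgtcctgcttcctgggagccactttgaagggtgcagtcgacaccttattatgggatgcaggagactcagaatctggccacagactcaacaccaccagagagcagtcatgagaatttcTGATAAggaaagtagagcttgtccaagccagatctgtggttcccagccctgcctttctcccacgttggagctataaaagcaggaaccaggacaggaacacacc
Mcpt1: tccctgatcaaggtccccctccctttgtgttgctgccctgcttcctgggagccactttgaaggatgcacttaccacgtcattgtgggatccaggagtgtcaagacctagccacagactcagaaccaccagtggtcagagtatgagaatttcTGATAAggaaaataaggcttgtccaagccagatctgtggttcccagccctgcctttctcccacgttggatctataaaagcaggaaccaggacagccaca
Mcpt8: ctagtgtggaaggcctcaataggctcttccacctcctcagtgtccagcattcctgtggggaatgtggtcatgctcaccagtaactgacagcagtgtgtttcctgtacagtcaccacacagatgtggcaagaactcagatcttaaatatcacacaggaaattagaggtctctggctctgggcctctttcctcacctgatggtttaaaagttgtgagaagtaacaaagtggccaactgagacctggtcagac
Cpa3: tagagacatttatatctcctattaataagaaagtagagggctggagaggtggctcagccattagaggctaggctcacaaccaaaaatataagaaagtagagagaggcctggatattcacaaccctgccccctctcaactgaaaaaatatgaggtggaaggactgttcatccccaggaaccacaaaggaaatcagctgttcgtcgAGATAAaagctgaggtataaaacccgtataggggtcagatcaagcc
Ms4a2: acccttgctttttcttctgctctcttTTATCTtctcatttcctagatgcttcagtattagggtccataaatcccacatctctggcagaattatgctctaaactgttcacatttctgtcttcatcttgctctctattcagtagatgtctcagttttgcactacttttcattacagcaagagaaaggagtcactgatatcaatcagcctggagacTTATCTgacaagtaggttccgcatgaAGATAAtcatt

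They span chr14:55944676-55944925 (*Cma1*, minus strand), chr14:56062311-56062560 (*Mcpt4*, minus strand), chr14:56017714-56017963 (*Mcpt1*, plus strand), chr14:56085198-56085447 (*Mcpt8*, minus strand), chr3:20242182-20242431 (*Cpa3*, minus strand) and chr19:11623720-11623969 (*Ms4a2*, minus strand). The starts are those of RefSeq, and parts of the *Mcpt8* and *Mcpt4* stretches lie inside the genes as GENCODE M21 draws them. In the full 300-base entries, which run on for 50 bases past the start, *Mcpt4* and *Mcpt1* had the same TGATAA 103 and 99 bases before the start and were 80.6% identical over 309 aligned columns, whereas *Cma1* and *Mcpt4* were 47.7% identical. *Cpa3* had AGATAA 46 bases before the start, *Ms4a2* had 3 matches, and *Fcer1a*, *Mrgprb2* and *Slc18a2* had 1 each, and *Il1rl1* had 2. *Cma1*, *Kit*, *Hdc*, *Mrgprb1*, *Tph1*, *Gata2* and *Mcpt8* had none. *Kit*, *Tph1*, *Gata2* and *Il1rl1* have 2 promoter entries each, of which only the first was read. AGATAA or TGATAA occurs in 18.6% of the 32851 promoters of this table, so a match is a description of the letters and not a binding site. Of the GATA factors, *Gata2* had 119 UMIs in 55 mast cells and *Gata1* had 7 UMIs in 6.

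To see which other genes set mast cells apart, summed CPM were compared with those of all other dermal cells for the 3551 genes whose mean level in both groups equalled at least 5 UMIs in the mast cell sum. A gene was counted as higher or lower at a ratio of at least 2-fold with an interval that left out 1. Because the gate is itself made of expression values, this is a description of the chosen cells. The share of genes higher was 13.2% (467 genes) and the share lower was 11% (389 genes), with a median log2 ratio of 0.10. A gene that is rare in the other cells passes the filter only by being high in mast cells, and one with under 5 UMIs in mast cells only by being high in the others, so the counts and medians of lists below describe the genes that passed and support nothing about their lists. The number that passed through the mast cells only is given for each list where there were any. Through the other cells only passed 4 genes each of cytokines and of adhesion and homing, 2 each of IgE receptor signalling, transcription factors and cell cycle, and 1 each of other receptors, neural receptors and exocytosis. Of the 14 granule protease genes, 11 were measured at this level, 8 of them through the mast cells only. The rule itself used 4 of the 11, and of the other 7, 6 were higher and 1 neither. Over all 11, with the rule's own genes included, 9 were higher and 1, *Mcpt8*, lower, with a median log2 ratio of 9.45. With the proteases left out of the totals, the median of all genes was 0.24, with 547 genes higher and 306 lower, and no list median changed sign.

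Of 17 genes for the stored amines, heparin and the granule matrix 6 were measured. *Tph1*, *Maob*, *Chst1* and *Slc18a2* passed the filter through the mast cells only and so could only have a ratio above 1. This enters the median log2 ratio of 5.49 (2.42 with genes of 2 expected UMIs included and 3.63 over the mast cells with *Ptprc*). *Hdc* and *Srgn*, whose level in the other cells was enough by itself, were higher too. The other 11 genes, such as the heparin-synthesis enzyme *Ndst2* (8 UMIs), were too rare to be read. *Hdc*, histidine decarboxylase, which makes histamine, had 344 UMIs in 87 mast cells, 6.97-fold above the other dermal cells (6.24 to 7.76). *Srgn*, the core protein of the granule proteoglycan serglycin, had 1181 UMIs and was 3.67-fold higher (3.46 to 3.89). *Tph1*, tryptophan hydroxylase 1, the first enzyme of serotonin synthesis, had 137 UMIs in 40 mast cells and 16 in the 4614 other cells, so 89.5% of the *Tph1* UMIs of the dermis lay in mast cells. *Slc18a2* (vesicular monoamine transporter 2) had 44 UMIs against 91 in all other cells, or 103-fold in CPM (70.5 to 150). Outside this list, *Slc6a4* (serotonin transporter) had 54 UMIs in 39 mast cells and *Ddc* had 18 in 13. Their levels in the other cells are not given here. Monoamine oxidase B, *Maob*, which breaks amines down, had 13 UMIs in 11 cells.

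Lipid mediator genes were divided. Of 13 genes 4 were measured, 1 of them (*Hpgds*) through the mast cells only, with a median log2 ratio of 1.61, which turned to -0.23 with genes of 2 expected UMIs included. *Hpgds*, the haematopoietic prostaglandin D synthase, had 20 UMIs in 20 different mast cells (12.3-fold higher, 7.40 to 19.2), and *Cyp11a1*, the enzyme that starts steroid synthesis, 80 UMIs (12.1-fold higher, 9.51 to 15.1). Against basophils, however, *Cyp11a1* was lower in mast cells. *Alox5ap*, which presents arachidonate to 5-lipoxygenase, was 2.10-fold lower (1.73 to 2.59), and *Alox5* itself had 1 UMI.

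*Fcer1a*, its α chain, had 315 UMIs in 70 of 133 mast cells (52.6%), and *Ms4a2*, its β chain, 63 UMIs in 50 (37.6%). With every cell thinned to 500 UMIs, so that depth no longer differs, *Fcer1a* was found in 41.4% of mast cells (32.9 to 50.2%) and 32.4% of basophils (25.5 to 39.8%), and *Ms4a2* in 20.3% (13.8 to 28.1%) and 18.8% (13.3 to 25.3%). The difference in these shares was not tested. In macrophages, which should lack both chains, a UMI was found in 1 and 0 of 810 cells after thinning, and in 3.21% and 1.11% of them before. Of the 19 genes of the receptor and its signalling 15 were measured, 3 of them through the mast cells only, with 5 higher, 1 lower and 9 neither and a median log2 ratio of 0.56. The adaptors *Lat* and *Lat2* were among the higher genes and *Orai1*, a pore of store-operated calcium entry, was the lower one with 3 UMIs.

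*Kit* had 47 UMIs in mast cells and 106 in all other dermal cells, a 94.9-fold higher CPM (65.8 to 135). *Il1rl1*, the receptor for IL-33, was 64.1-fold higher (48.1 to 84.4) with 68 UMIs in 45 cells. Of 17 genes for Kit and growth factor receptors 11 were measured, 5 of them through the mast cells only, and 8 were higher, among them the shared β chains for IL-3, IL-5 and GM-CSF, *Csf2rb* and *Csf2rb2*, and the median log2 ratio was 1.74. *Mrgprb1* and *Mrgprb2*, Mas-related receptors of which the latter answers to basic peptides and drugs, had 123 UMIs in 63 cells and 19 UMIs in 16 cells, against 21 and 3 UMIs in the 4614 others. In all, 70 mast cells (52.6%) had a UMI of either, and 38 had one of these together with *Fcer1a*. Among the 37 other activating and inhibitory receptors, 36 found in the counts and 17 measured (6 through the mast cells only), 6 were higher and 5 lower, with a median log2 ratio of -0.04, which turned to 1.57 over the mast cells with *Ptprc* and 0.65 at 10 expected UMIs. The 20 mast cells with *Ptprc* include the members at 23.3 and 33.4 gate UMIs per 10000, with 300 *Lyz2* and 188 *S100a8* UMIs. A further one held 446 *S100a8* UMIs, and markers of other cell types made up 4.04% of the UMIs of these 20 cells. *Adora3* (adenosine receptor A3) and *Pilra* were higher, whereas *C3ar1*, *C5ar1* and *Fcgr2b* were lower, with 4, 12 and 21 UMIs.

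Of 20 receptors for neural signals 5 were measured. *Mrgprb2*, which is in both receptor lists, and *Ednra* passed the filter through the mast cells only and so had to be higher, which enters the median log2 ratio of 2.39, and of the other 3 genes *Ramp1* was higher. *Ramp1*, whose product pairs with *Calcrl* to bind the neuropeptide CGRP, had 84 UMIs in 55 mast cells, a CPM of 447 against 414 in T cells, 56.3 in fibroblasts, 34.1 in macrophages and 18.2 in basophils. After thinning, 23.3% of mast cells (16.4 to 31.4%) and 11.7% of T cells (8.51 to 15.6%) carried it. *Calcrl* had 2 UMIs in mast cells, and *Tacr1*, the receptor for substance P, had 0. *Ednra*, an endothelin receptor, had 10 UMIs in 6 cells.

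Of the 40 listed genes for cytokines, chemokines and growth factors, *Ccl7* and *Ccl2*, which attract monocytes, had the most UMIs in mast cells. *Ccl7* (chr11:82045712-82047525) was the fourth most abundant transcript of mast cells, with 2692 UMIs in 127 of 133 cells and at most 126 in 1 cell. Its CPM of 14324 compared with 683 in macrophages, 413 in fibroblasts, 158 in T cells and 66.6 in basophils. It was found in 92.5% of mast cells thinned to 500 UMIs (86.6 to 96.3%) and in 22.6% of macrophages (19.8 to 25.6%). Mast cells, with 0.465% of the UMIs of the dermis, held 17.4% of its *Ccl7* UMIs. The neighbouring gene *Ccl2* (chr11:82035571-82037453) had 579 UMIs in 105 cells and a CPM of 3081, against 539 in macrophages and 38.7 in basophils. Mast cells had the highest *Ccl7* and *Ccl2* level of the 5 groups, and 101 members had UMIs of both. *Ccl1*, a ligand of CCR8, had 19 UMIs in 10 mast cells, 6 of them in 1 cell, and 3 UMIs elsewhere in the dermis. *Il4* had 61 UMIs in 42 cells and *Il13* had 9 in 6.

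Of these 40 genes 21 were measured, 4 of them through the mast cells only, with 7 higher and 9 lower than in the other dermal cells and a median log2 ratio of -0.46. The higher genes were *Ccl7*, *Ccl2*, *Ccl1*, *Il4*, *Il13*, *Lif* and *Csf1*. *Lif* had 9 UMIs in 5 cells, 5 of them in 1 cell, and *Csf1* 19 UMIs in 12 cells. Against basophils, only *Ccl7*, *Ccl2* and *Ccl1* of these were counted as higher. The lower ones were *Ccl3*, *Ccl4*, *Ccl5*, *Ccl6*, *Ccl9*, *Ccl17*, *Cxcl1*, *Cxcl2* and *Il17a*. *Tnf*, long known as a stored mast cell cytokine, had 14 UMIs in 12 cells, and after thinning it was found in 3.01% of mast cells and 3.09% of macrophages. *Il1b* had 262 UMIs and a log2 ratio of 0.08, and *Il6* had 14 UMIs.

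**Figure D2:**
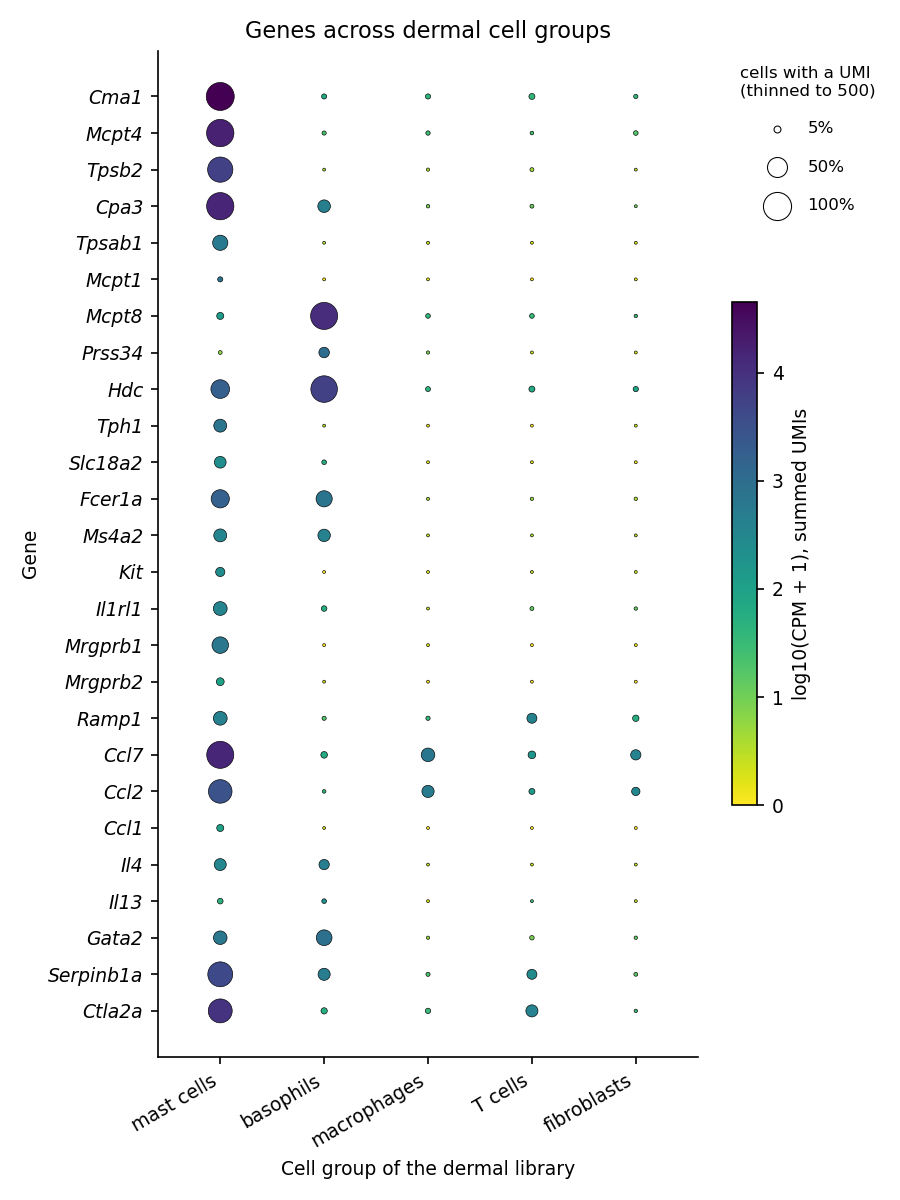
Level and detection of 26 genes (rows) in 5 cell groups of the dermal library (columns), with colour for log10(CPM + 1) of summed UMIs and circle area rising with the share of cells with a UMI after thinning to 500 UMIs. *Ccl7* is found in 92.5% of mast cells and 22.6% of macrophages, *Cpa3* in 94.0% of mast cells and 19.3% of basophils, and *Mcpt8* and *Prss34* lie in basophils.

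Of 26 transcription factor genes of the lineage 14 were measured, 2 of them through the mast cells only, with 6 higher, 4 lower and 4 neither, with a median log2 ratio of 0.10, equal to that of all genes. *Gata2* was 20.8-fold higher (17.1 to 25.2), *Mitf*, required for mast cell development, 16.6-fold (9.50 to 27.2) with 17 UMIs in 13 cells, and *Tal1* had 11 UMIs in 10 cells. *Hes1*, a target of Notch signalling, was 7.93-fold higher (5.80 to 10.6), and *Id2* and *Ikzf1* were the others. *Cebpb* and *Spi1*, factors of monocytes and neutrophils, were lower, as were *Tcf4* and *Bhlhe40*, the last with 0 UMIs in mast cells and at least 4.70-fold lower than elsewhere when set against 3 counts.

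Of 12 measured genes of granule exocytosis, 2 of them through the mast cells only, 3 were higher, 2 lower and 7 neither, with a median log2 ratio of 0.47, while 75.9% of all measured genes were neither. *Rab27b*, a GTPase that guides granules to the membrane, had 56 UMIs in 38 mast cells against 40 in all other dermal cells (300-fold in CPM, 196 to 461). *Cd63*, a granule membrane tetraspanin, had 567 UMIs in 117 cells and a log2 ratio of 1.91, but its CPM of 3017 compared with 3482 in fibroblasts and 2535 in basophils, and *Vamp2* was also higher. *Cd9* and *Lamp1* were lower. Of the immediate early and stress genes, which respond to cell activation and also to tissue digestion, 23 of 25 were measured, 1 of them through the mast cells only, with 4 higher (*Egr1*, *Fosb*, *Nr4a3* and *Hspa1b*), 1 lower and 18 neither, with a median log2 ratio of 0.23. *Hspa1a* had 732 UMIs in 118 mast cells and a log2 ratio of -0.38. The 14 measured adhesion and homing genes had 3 higher and 7 lower, with a median of -1.04, which turned to 0.082 over the 20 mast cells with *Ptprc*. *Cadm1*, an adhesion molecule of mast cells, *Itga2* and *Itga2b* were the higher ones, and all 3 had passed through the mast cells only. *Cxcr4* had 0 UMIs and was at least 3.80-fold lower than in the other cells. Of 28 genes for Toll-like receptors and the interferon response 10 were measured, 0 higher and 2 lower, with a median of -0.42 that turned to 0.35 over the mast cells with *Ptprc*, and *Tlr7*, the sensor of imiquimod, had 1 UMI in all mast cells together, which is too few to compare with 371 in the rest. The 4 measured cell cycle genes, 1 of them through the mast cells only, were neither higher nor lower (median -0.59, which turned to 0.34 as a mean over cells, 0.15 without the 5 members above 5000 UMIs and 0.043 over members with at least 1000 UMIs), and *Mki67* had 0 UMIs.

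**Figure D3:**
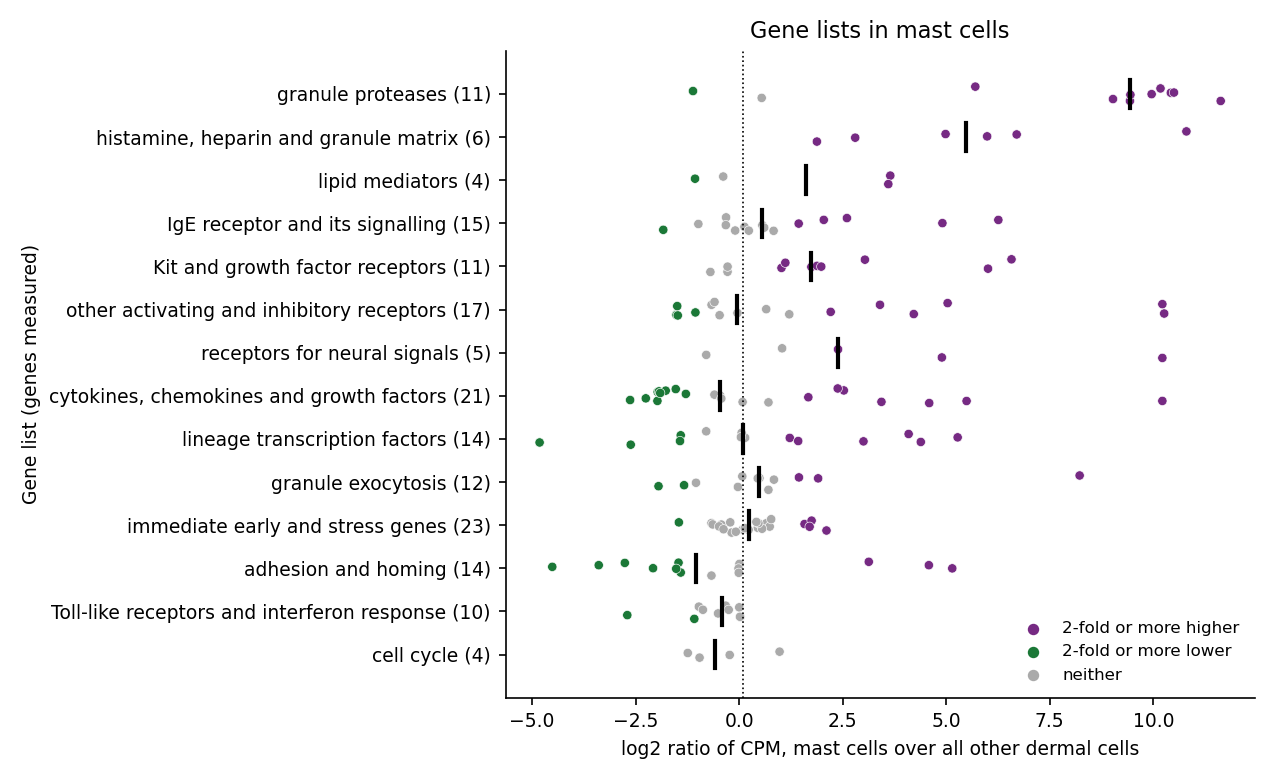
Log2 ratio of CPM in mast cells over all other dermal cells for each measured gene (points) of 14 gene lists (rows), with the median of each list as a black bar and the median of all 3551 genes, 0.10, as the dotted line. Granule proteases and genes for histamine, heparin and the granule matrix have medians of 9.45 and 5.49, drawn from genes most of which passed the filter through the mast cells only (the latter is 2.42 with genes of 2 expected UMIs included), while adhesion and homing genes have a median of -1.04 (0.082 over the mast cells with *Ptprc*).

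Beyond the lists, the highest ratios to the other dermal cells that did not involve the gate, mitochondrial or ribosomal protein genes were those of *Gm4847*, *Ctsj*, *Mcpt1*, *Rprm*, *Tph1*, *Tpsg1*, *Mrgprb1*, *Ccl1*, *Mrgprb2* and *Mcpt2*. They differ in how many cells carry them. *Rprm*, a cell cycle inhibitor acting downstream of p53, had 49 UMIs spread over 29 mast cells and 5 UMIs elsewhere. *Gm4847*, a predicted protein-coding gene on chromosome 1, had 73 UMIs in 9 mast cells, 47 of them in 1 cell, and 2 UMIs elsewhere. *Ctsj*, a cathepsin, had 10 UMIs in 2 cells, 9 of them in 1 cell. The lowest ratios were those of *Hbb-bs* (1 UMI against 11197), *Serpina3n*, *Hbb-bt*, *Bhlhe40*, *Crabp1*, *Trbc2*, *Cxcl14*, *Cxcr4*, *Fmnl1* and *Olfm1*, all with 0 or 1 UMI in mast cells. Haemoglobin, the T cell receptor gene *Trbc2* and the fibroblast gene *Crabp1* are products of other cell types.

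Basophils of the same library are the nearest comparison, since they share the IgE receptor, histamine and *Gata2*. Of 3386 genes measured by the same filter, 25.9% (877) were higher and 14.1% (476) lower in mast cells, with a median log2 ratio of 0.38. Of 12 measured proteases the gates used *Cma1*, *Mcpt4*, *Tpsb2* and *Mcpt8*. Of the other 8, 5 were higher and 2 (*Prss34* and *Gzmb*) lower, with a median log2 ratio of 5.95, or 4.63 when genes with 0 UMIs in basophils are set at 3 counts. Of all 12, 6 passed the filter through the mast cells only and *Prss34* through the basophils only. *Cpa3* was 32.4-fold higher in mast cells (29.1 to 36.1), and yet 55.1% of basophils had a *Cpa3* UMI, at 455 CPM against 7.97 in macrophages. Conversely *Prss34* had 1 UMI in mast cells and 826 in basophils. *Kit*, with 47 UMIs in mast cells, and *Mrgprb1*, with 123, had 0 UMIs in the 176 basophils and were at least 68.9-fold and 180-fold higher in mast cells, against 3 counts. Further genes with 0 UMIs in basophils were *Mcpt1*, *Gm4847*, *Gchfr*, *Gnai1*, *Hs6st2* and *Sdsl*. *Gchfr* encodes a regulator of the cofactor used by tryptophan hydroxylase, and *Hs6st2* a heparan sulfotransferase. *Tph1* and *Ccl7* complete the highest ratios.

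Amine genes split between the cell types. *Hdc* was 3.08-fold higher in basophils (2.76 to 3.45), at 5637 CPM against 1830, and after thinning it was found in 89.2% of basophils and 43.6% of mast cells. *Tph1* lay the other way, with 137 UMIs in mast cells and 2 in basophils, and *Slc18a2* was 4.20-fold higher in mast cells (2.72 to 6.50). *Srgn* was level between them, at 6284 and 6462 CPM. *Fcer1a* was 2.35-fold higher in mast cells (2.04 to 2.70), while the interval for *Ms4a2* held 1 (ratio 0.855, 0.642 to 1.12). In mast cells under 1000, of 1000 to 5000 and above 5000 UMIs, *Fcer1a* stood at 2027, 1992 and 624 CPM, against 714 in basophils. *Hdc* stood at 1335, 1550 and 3008 CPM in these classes. In the deepest class the members with 6064 and 6772 UMIs had 24 and 4 UMIs of *Fcer1a*. Those with 7545, 10795 and 13706 UMIs had 0, the last of them being the member nearest to the gate limit. Of 6 measured lipid mediator genes 5 were lower in mast cells, with a median log2 ratio of -2.53, but *Alox5* and *Alox15* had passed through the basophils only and *Hpgds* through the mast cells only. *Cyp11a1* was among the 5 lower genes. *Alox5ap* was 5.67-fold higher in basophils (4.63 to 7.01), *Alox15* had 0 UMIs in mast cells and 195 in basophils, and *Hpgds* had 20 UMIs in mast cells and 0 in basophils.

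The chemokines and cytokines also differed. Of 18 measured, 1 of them (*Ccl1*) through the mast cells only and 1 (*Ccl5*) through the basophils only, 3 (*Ccl7*, *Ccl2* and *Ccl1*) were higher and 11 lower in mast cells, with a median log2 ratio of -1.89, beside the 14.1% lower of all measured genes. *Ccl7* was 215-fold higher in mast cells (165 to 286) and *Ccl2* 79.5-fold (55.7 to 117). In basophils *Ccl6* was 72.8-fold higher (56.0 to 96.4), *Ccl3* 59.7-fold (43.6 to 84.0), *Ccl4* 47.7-fold (36.4 to 63.7), *Il6* 36.1-fold (21.5 to 66.2) and *Ccl9* 34.6-fold (25.3 to 48.7). *Ccl7* and *Ccl2*, ligands of CCR2, were thus higher in mast cells. The summed level of *Il4* was 325 CPM in mast cells and 471 in basophils, where 61 of its 389 UMIs lay in 1 cell. Detection of *Il4* after thinning ran the other way, at 17.3% of mast cells and 12.5% of basophils. The difference in these shares was not tested. *Il13* had 9 UMIs in mast cells and 171 in basophils, 92 of the latter in 1 cell. After thinning, *Il13* was found in 3.01% of mast cells (0.825 to 7.52%) and 1.70% of basophils (0.353 to 4.90%).

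**Figure D4:**
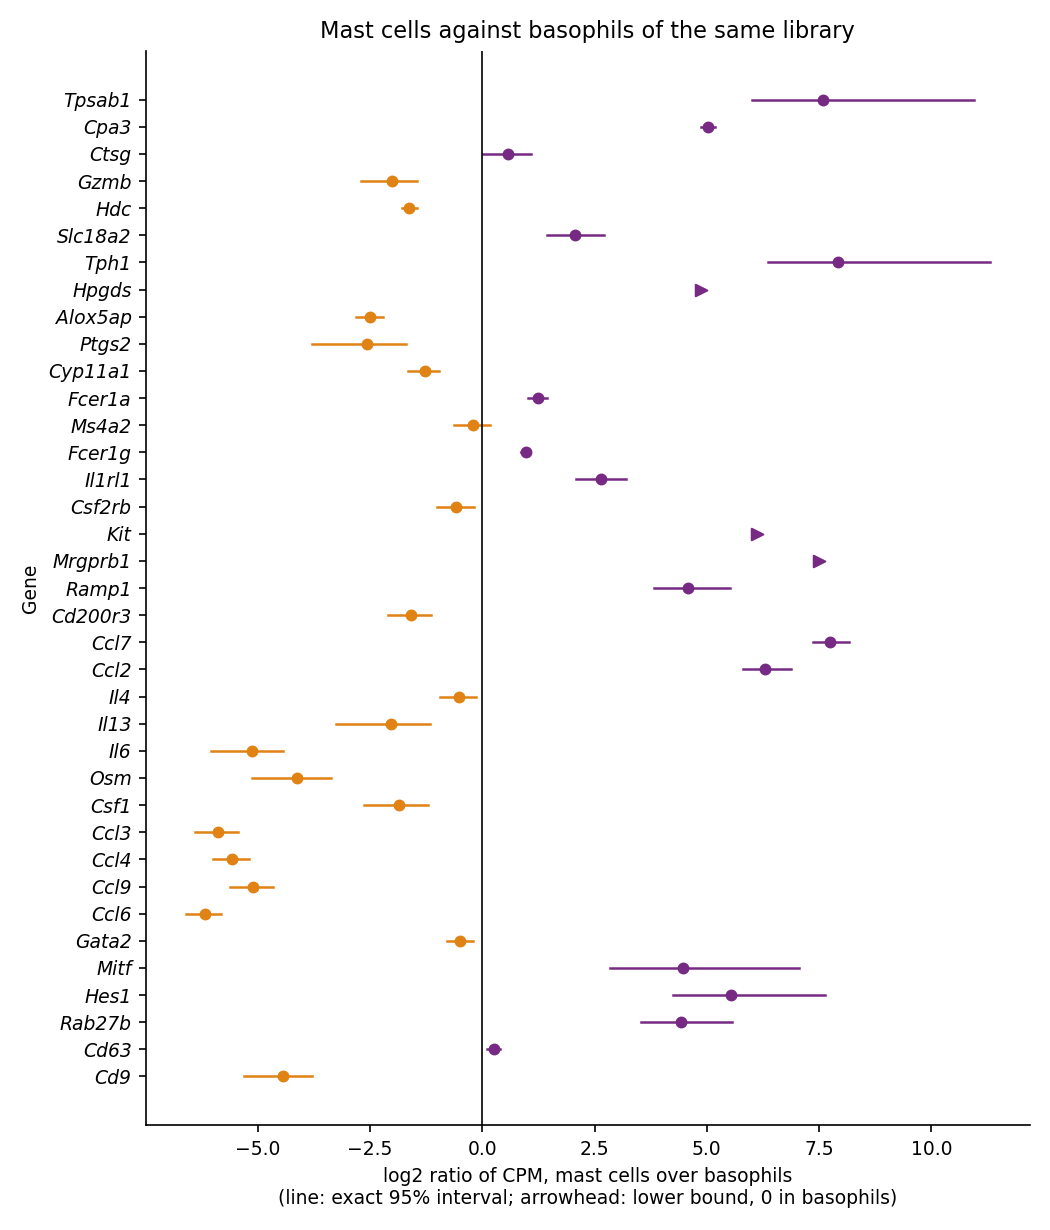
Log2 ratio of CPM in mast cells over basophils of the dermal library for 37 genes ordered by role, in purple above 0 and orange below it, with exact 95% intervals as lines and, as arrowheads, lower bounds for genes with 0 UMIs in basophils (*Hpgds*, *Kit* and *Mrgprb1*). *Ccl7* lies at 7.74 and *Ccl6* at -6.17.

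Among the other lists, genes for Kit and growth factor receptors had 10 measured, 3 higher and 1 lower (median 0.41), and those of IgE receptor signalling 14 measured, 4 higher and 1 lower (median 0.06), shares close to the 40.0% of all measured genes that were higher or lower. For histamine, heparin and granule matrix the counts were 7 measured, 3 of them through the mast cells only, with 4 higher and 2 lower and a median of 2.07. The other activating and inhibitory receptors had 22 measured, 3 higher and 7 lower (median -0.20). Of 5 measured receptors for neural signals 4 were higher and 1 lower (median 4.94, or 4.58 with genes at 0 set at 3 counts), and the 4 had passed through the mast cells only, *Ramp1* being 24.6-fold higher (14.1 to 45.9). Transcription factors had 17 measured, 3 higher (*Mitf*, *Hes1* and *Id2*) and 5 lower (median 0.01). *Gata2* was 1.41-fold higher in basophils (1.16 to 1.73), and *Cebpa*, which sets basophil from mast cell fate, had 0 UMIs in mast cells and 140 in basophils, at least 10.6-fold higher in the latter. Exocytosis genes had 17 measured, 3 higher and 5 lower (median -0.17), immediate early and stress genes 23 measured, 2 higher and 9 lower (median -0.64), and adhesion and homing genes 14 measured, 2 higher and 9 lower (median -1.73). Of 8 measured Toll-like receptor and interferon genes 1 was higher and 3 lower (median 0.13), and 2 cell cycle genes were neither (median 0.63). As above, genes rare in basophils passed only by being high in mast cells, and of these lists that held for 2 genes of Kit and growth factor receptors, 1 each of IgE receptor signalling, exocytosis, stress, adhesion and Toll-like receptor genes, 3 other receptors and 4 transcription factors. Genes rare in mast cells passed only by being high in basophils, which held for 6 other receptors, 4 adhesion, 3 exocytosis and 2 transcription factor genes and 1 each of IgE receptor signalling, neural receptors and Toll-like receptor genes. The lowest ratios outside the gate were those of *Gm12840*, *Prss34*, *Serpinb2*, *Cdh1*, *Hacd4*, *Alox15*, *Klf5*, *Ccl6*, *Perp* and *P2ry14*, all with 0 or 1 UMI in mast cells except *Ccl6* with 56.

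Mast cells varied among themselves to a degree that differed between genes. *Cma1* was found in every cell, with 13.1, 461 and 1477 UMIs per 10000 as the lowest, median and highest value, and a coefficient of variation of 0.69. All 3 gate genes were found in 119 cells. *Ctla2a*, an inhibitor of cathepsin-type proteases and the seventh most abundant transcript (1732 UMIs), had a coefficient of variation of 2.42. It was absent from 20 cells, had a median of 34.8 per 10000, and reached 3052 per 10000, or 300 UMIs, in 1 cell. *Serpinb1a*, an inhibitor of chymase-like proteases, had 806 UMIs in 122 cells and a coefficient of 0.82. *Ccl7* per 10000 ran from 0 through a median of 127 to 1239.

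*Mcpt1*, the chymase typical of mucosal mast cells, had the highest coefficient of variation, 8.78, of the 15 genes for which it was computed. Its 140 UMIs lay in 3 mast cells, with 4, 41 and 95 UMIs, and the other 130 had 0. The cell with 95 *Mcpt1* UMIs also held 8 of the 13 *Mcpt2* UMIs and only 7 of *Cma1* and 11 of *Mcpt4*. The cells with 41 and 4 *Mcpt1* UMIs held 43 and 39 of *Cma1*, and 33 and 9 of *Mcpt4*. Their depths, 1221, 1599 and 1017 UMIs in that order, were above the median of the group (879). Of the remaining dermal cells, 4614 in number, 9 *Mcpt1* UMIs were counted in all. These 3 cells are too few for a comparison with the others.

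Levels also went with depth. Comparing the 82 members under 1000 UMIs, the 46 with 1000 to 5000 and the 5 above 5000, *Ccl7* fell from 25679 through 12009 to 3676 CPM and *Ctla2a* from 18094 through 6583 to 2429. *Cma1* stood at 57322, 43312 and 31661, whereas *Mcpt4* did not follow that order (15374, 15491 and 22303). The last step for *Cma1* rests on the member nearest to the gate limit, which held 18 *Cma1* UMIs among 13706. Without that member the level above 5000 UMIs would not lie below that at 1000 to 5000. *Malat1*, a nuclear RNA, rose from 2940 through 4722 to 12009 CPM, and 31 of the 133 mast cells (23.3%) had no *Malat1* UMI, against 1.19% of the other, deeper, dermal cells. What part depth, the state of the cells or free RNA had in these differences was not tested. Within the group, the per-cell shares of *Cma1* and *Cpa3* rose together (Spearman's rho 0.80 over 133 cells and 0.79 over the 51 with at least 1000 UMIs), as did those of *Cma1* and *Serpinb1a* (0.65 and 0.82) and of *Ccl7* and *Ccl2* (0.65 and 0.59). *Cma1* with *Ctla2a* gave 0.11 and 0.15. These are descriptions of cells that share a library and, within a cell, a total.

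**Figure D5:**
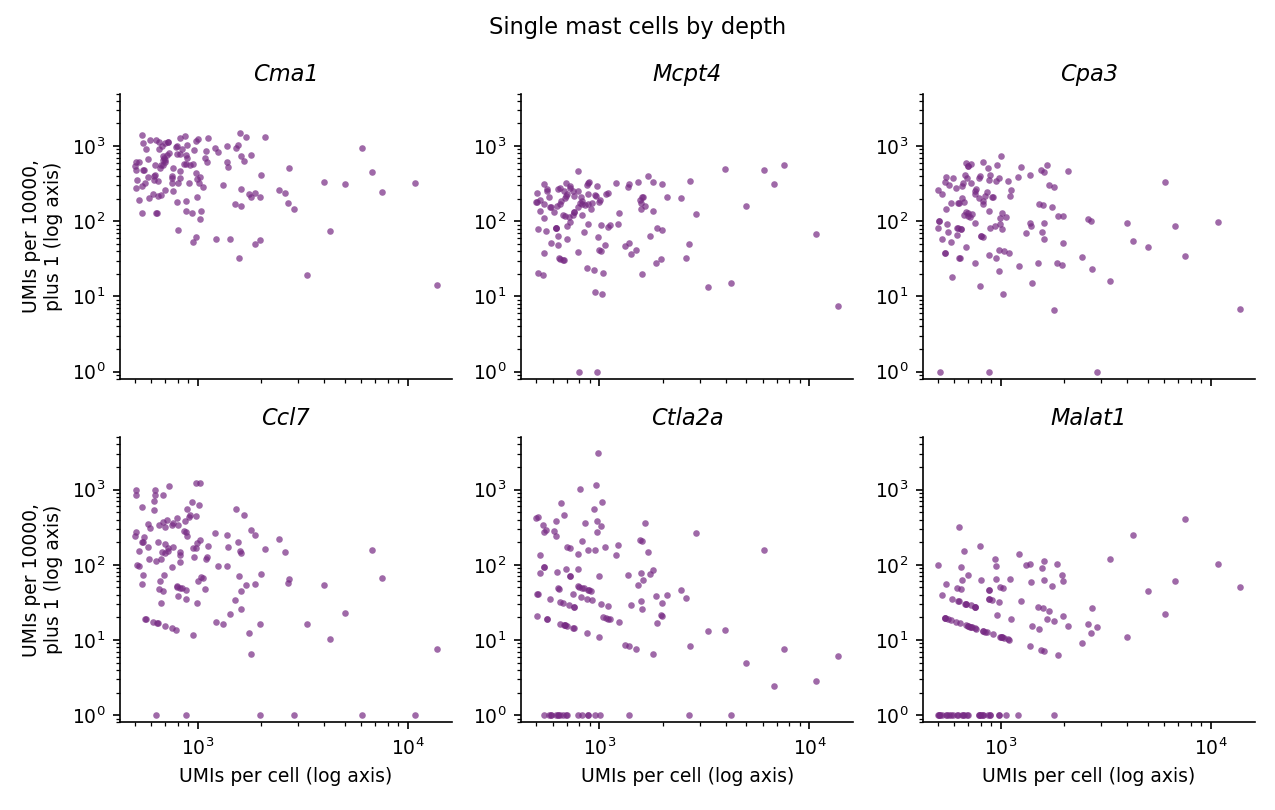
UMIs per 10000 (log axis, 1 added) of 6 genes in each of the 133 mast cells against the UMIs of the cell (log axis), 1 point per cell. *Cma1* is present in every cell, *Ctla2a* spans from 0 to 3052 per 10000, and *Ccl7* is lower and *Malat1* higher in the deeper cells.

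Transcripts of other cell types were looked for in the mast cells with 80 marker genes, which made up 1.66% of mast cell UMIs and 3.85% of those of all other dermal cells. The 7 neutrophil genes had 2112 UMIs (11238 CPM against 17976 in the rest), most of them *S100a8* with 1102, and 4 mast cells with at least 50 UMIs of *S100a8* and *S100a9* held 79.6% of the UMIs of these genes. The lowest of the 4 had 6 *Cma1* UMIs. All 8 macrophage genes were seen, with 193 UMIs led by *Pf4* (100, an abundant product of platelets too), or 1027 CPM against 4008. The 8 dendritic cell genes had 539 UMIs led by *Cd74* (280) with *Xcr1* at 0, the 5 monocyte genes 141 led by *Plac8* (90), and the 7 fibroblast genes 116 led by *Dcn* (52) with *Pdgfra* at 0. T cell genes had 6 UMIs with *Cd3e*, *Trac*, *Trbc2* and *Cd2* at 0, and B cell, keratinocyte and Schwann cell genes had 0. The 6 basophil genes had 90 UMIs, of which *Cd200r3*, also made by mast cells, had 40. Eosinophil, natural killer cell, endothelial and erythroid genes had 5, 1, 2 and 3 UMIs.

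Cells that met 2 gates were few. Of the mast cells 1 also met the macrophage gate, 2 the fibroblast gate and 0 the T cell gate. The doublet caller Scrublet marked 0 cells at its automatic threshold, and when the 231 barcodes with the highest scores were removed instead, 9 mast cells went with them and the marker share fell to 0.942%. Without those 9, no list median against the other dermal cells changed sign. *Ptprc* was found in 20 mast cells (15.0%) and, after thinning, in 6.02% (2.63 to 11.5%), against 3.98% of basophils, 6.54% of macrophages and 3.72% of fibroblasts (1.71 to 6.94%), the last of which should lack it. The thinned share was 12.9% in T cells and 10.1% in all other dermal cells. In CPM, *Ptprc* stood at 149 in mast cells (28 UMIs), 147 in macrophages, 53.0 in fibroblasts, 225 in T cells and 186 in all other dermal cells.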

How the data were processed

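The authors deposited 1 matrix of raw UMI counts per library, made with Cell Ranger 3.0.2 per the file headers against mm10. The deposited barcodes had not been put through the limits on genes, mitochondrial share and doublets that the study's methods describe, and 2 such limits were applied here (at least 200 genes, at most 10% mitochondrial UMIs). Counts were summed over the cells of a gate and compared as CPM with a pseudocount of 0.5 UMIs for log2 ratios and exact conditional 95% intervals. Genes whose mean CPM equalled fewer than 5 expected UMIs in the mast cell sum were left out. Thinning drew 500 UMIs per cell with a fixed seed. The genes named are those of the lists, cell type markers and the 10 highest and 10 lowest ratios in each comparison, without gate, mitochondrial and ribosomal protein genes. Some others, such as *Ctla2a*, *Serpinb1a* and *Malat1*, were named without a fixed rule. Members and lists were chosen with earlier results of these data known. The comparison was also run on counts simulated from the summed profile of the other dermal cells. Such counts hold no differences between cells, so that run cannot bear on UMIs gathered in few cells. Python 3.11.15, numpy 2.4.6, scipy 1.17.1, pandas 2.3.3, matplotlib 3.10.9, scanpy 1.11.5 (Scrublet) and Biopython 1.88 were used. Alternatives changed the gate, depth, filter, scaling and doublets. Of 31053 gene IDs 30934 matched the GENCODE M21 annotation, and 15 of 19 symbols had an entry in the promoter table (*Tpsb2*, *Tpsab1*, *Ccl7* and *Mcpt2* did not).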

Additional observations from a re-analysis of the deposited data

How the results depend on the processing

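No paired analysis was possible because dermis and epidermis gave 1 library each. With 1 dermal library and no untreated skin, nothing here measures a spread between animals, and 187930 UMIs in 133 cells limit what can be read for genes below about 5 UMIs. Under alternatives chosen at the start, 255 recomputed values stayed within the limit for their kind and 77 did not. Of those added after the data were seen, 43 did and 3 did not. The limit was a factor of 1.5 for counts, 0.5 in log2 for medians and the 95% interval for shares. In all, 14 of these values, all of them list medians, had the opposite sign to the reported one, 6 of them while staying within that limit. The number of mast cells was 57 with at least 500 genes, 20 with *Ptprc* required and 51 with at least 1000 UMIs. In those cells the *Kit* share was 45.6% with 500 genes and 43.1% with 1000 UMIs, and thinning to 500 UMIs gave 9.77% for *Kit*, 41.4% for *Fcer1a*, 20.3% for *Ms4a2* and 43.6% for *Hdc*. The *Ms4a2* share was 47.4% with 500 genes, 50% with *Ptprc* and 47.1% with 1000 UMIs. Genes higher than in the other dermal cells numbered 157 with *Ptprc* required, 268 at 10 expected UMIs and 186 at 4-fold. Genes lower numbered 245 with 500 genes, 67 with *Ptprc*, 238 with 1000 UMIs, 233 at 10 expected UMIs, 589 as a mean over cells and 121 at 4-fold. Against basophils, 281 were higher with *Ptprc*, 557 at 10 expected UMIs and 330 at 4-fold, and 135 and 223 were lower with *Ptprc* and at 4-fold. The median log2 ratio of lipid mediator genes turned to -0.23 at 2 expected UMIs, where more rare genes enter, and was 1.02 as a mean over cells. That of adhesion and homing genes turned to 0.082 with *Ptprc* required, and was -0.52 at 5% mitochondrial UMIs, -1.94 and -0.32 with 50 and 10 gate UMIs per 10000, and -1.93 as a mean over cells. The median of histamine, heparin and matrix genes was 4.96 at 5% mitochondrial UMIs, 4.75 with 500 genes, 4.67 with 10 per 10000, 3.63 with *Ptprc*, 4.57 with 1000 UMIs, 2.42 and 4.75 at 2 and 10 expected UMIs and 4.98 as a mean over cells. That of the proteases was 8.25 with 1000 UMIs, of IgE receptor signalling 1.31 with *Ptprc*, and of Kit and growth factor receptors 1.24 with 500 genes and 1.02 at 2 expected UMIs. Other receptors gave -0.59 with 50 per 10000, 1.57 with *Ptprc*, 0.65 at 10 expected UMIs and -0.80 as a mean over cells. Receptors for neural signals gave 1.77, 1.81 and 1.79 with 500 genes, *Ptprc* and 1000 UMIs, and 1.71 at 2 expected UMIs and as a mean over cells. Cytokines gave -1.17 as a mean over cells. Toll-like receptor and interferon genes gave -1.16 with 50 per 10000, 0.35 with *Ptprc* and -1.32 as a mean over cells. Cell cycle genes, of which 4 were measured, gave -0.017 with 500 genes, 0.043 with 1000 UMIs, 0.15 without the 5 members above 5000 UMIs, -0.078 at 2 expected UMIs and 0.34 as a mean over cells. The protease share was 8.78% at 5% mitochondrial UMIs, 7.68% with 500 genes, 9.28% and 6.86% with 50 and 10 per 10000, 8.97% without doublets, 5.35% with *Ptprc*, 7.77% with 1000 UMIs, 9.11% without the deepest member and 8.85% without those above 5000 UMIs. The share of other cell types' markers was 1.76%, 1.88%, 1.43%, 2.84%, 0.942%, 4.04% and 1.97% under the same settings up to 1000 UMIs, and 1.92% without the members above 5000 UMIs. The cause of these shifts was not tested.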
